A study of Mus musculus with 12 samples.

Results

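Ileal mucosa was compared with colonic mucosa in mice whose fibroblasts carry a Ppard deletion. The comparison used 6 of the series' 12 arrays, which were 3 of knockout ileum and 3 of knockout colon, chosen by their sample titles. The other 6 arrays came from floxed controls, 3 per region, and served to ask whether the regional difference was larger or smaller in the knockout. Their spread also entered the shared variance estimate, and so every p-value of the knockout comparison. Every mouse was an untreated male of C57BL6/J background, killed between 4 and 6 weeks of age, and the groups were littermates. Knockout mice were labelled FSPCre-PPARB -/- and controls PPARB flox/flox. The Cre driver takes its name from fibroblast-specific protein 1, the product of S100a4, whereas the tissue measured was whole mucosa, cut by laser from stained sections. The labels give neither the deleted exons nor a shared mouse for arrays of the same number, and they do not say that the 3 arrays of a group came from separate mice, so p-values reflect only how these arrays vary, which may be technical variation. A label field names sectioned tumours as the source, and all others name mucosa.

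PPAR-beta/delta, encoded by Ppard, is a nuclear receptor that binds fatty acids and, paired with a retinoid X receptor, controls genes of fatty acid use. The ileum is lined by villi whose enterocytes end the digestion of peptides and sugars and take back bile acids and vitamin B12, and Paneth cells at the base of its crypts secrete antimicrobial alpha-defensins. The colon has no villi, recovers water and salt, and lies under a thick mucus made by goblet cells.

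RNA was amplified and hybridised to exon and junction arrays, and the value of a gene is the median of its log2 row values, over a median of 11 rows per gene. Values were tested for 31276 genes with limma, a linear model with moderated variances, and a gene was called at a Benjamini-Hochberg adjusted p under 0.05. No detection call was used here. Negative control rows had medians of 2.46 to 2.64 and 95th percentiles of 5.86 to 6.07 in the 6 knockout arrays. A gene near the medians is close to background and its fold change understates the difference, and a gene under the 95th percentile is not separated from the brightest control rows. Knockout ileum arrays correlated with each other at 0.954 to 0.971 and with knockout colon arrays at 0.935 to 0.966. The array of knockout ileum 1 stood apart from the others, at -72.3 on the first principal component where the other 11 lay between -35.4 and 43.9. The second component separated the regions, with colon arrays at 14.2 to 42.7 and ileum arrays at -31.4 to -11.5. The number of arrays limits the precision of every value.

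The epithelial genes Epcam, Cdh1 and Krt8 measured 7.28 to 9.80 in all 6 knockout arrays, and none of them was called between regions. Epcam nonetheless had ileum values of 8.76, 8.31 and 8.07 above the colon values of 7.94, 7.76 and 7.28 (0.72, adjusted p = 0.387), and Krt20, a keratin of differentiated epithelium, had 9.50, 9.09 and 8.53 above 7.49, 7.78 and 7.21 (1.55, adjusted p = 0.0944). The part of epithelial content in the enterocyte genes described below was not tested. Fibroblast collagen Col1a1 measured 6.87 to 7.83, so the dissected mucosa held stroma as well. Of the other fibroblast markers, Col1a2 measured 6.04 to 6.77 and Dcn ran from 3.66 to 6.59. Pdgfra, at 4.42 to 5.03, lay under the 95th percentile of the negative controls. The leukocyte gene Ptprc, at 2.97 to 3.56, the hepatocyte gene Alb, at 2.31 to 2.96, and the pancreatic lipase gene Pnlip, at 2.76 to 2.98, were at or near background. Ptprc does not stand for all leukocyte genes. The macrophage gene Csf1r measured 4.21 to 5.30, the T cell gene Cd3e 3.76 to 4.88 and the B cell gene Cd79a 3.84 to 4.71. These lay under the 95th percentile of the negative controls, while the plasma cell gene Jchain ran from 3.37 to 7.13. In tissue of mixed cells, a lower value can come from fewer cells of a type or from less RNA per cell, and these cannot be told apart.

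Ppard itself did not pass the test between regions. Its values were 6.95, 6.61 and 6.78 in knockout ileum and 7.27, 6.96 and 6.42 in knockout colon, a difference of -0.10 (standard error 0.20, adjusted p = 0.997), and the ranges overlapped. The floxed arrays measured 6.49, 6.15 and 6.54 in ileum and 6.91, 6.67 and 6.63 in colon, and their means of 6.39 and 6.74 were no higher than the 6.78 and 6.88 of the arrays labelled knockout. With the deleted exons unnamed and whole mucosa measured, these values do not check the labels. Over its 23 rows the regional difference in knockout mucosa ran from -0.55 to 0.65. S100a4, whose promoter names the Cre driver, measured 3.88, 4.15 and 2.80 in ileum and 3.16, 3.57 and 3.57 in colon (difference 0.18, adjusted p = 0.997), again with overlap. With 1 array left out, the Ppard difference turned to 0.09 without knockout colon 1 and that of S100a4 to -0.09 without knockout ileum 2.

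In knockout mucosa 247 genes (0.790% of those tested) differed between the regions, 150 higher in ileum (0.480%) and 97 lower (0.310%). The genes higher in ileum were led by Fabp6, the bile acid binding protein of ileal enterocytes, by the peptidase gene Anpep and by alpha-defensins. The genes lower in ileum were led by the carbonic anhydrases Car1 and Car2 and the cytochrome P450 gene Cyp2c55. Of the called genes, 209 (0.668% of genes tested) differed by at least 2-fold, 138 higher and 71 lower. The median size was 1.77 on the log2 scale for the higher and 1.20 for the lower genes, and 38 higher genes but 8 lower ones exceeded 8-fold. Many of the former are alpha-defensin genes or pseudogenes, near-identical copies that are not separate measurements. Over all genes the median difference was -0.008, and 2301 genes had an unadjusted p under 0.05 where 1564 would by chance. All 150 and all 97 genes had ileum arrays that did not overlap the colon arrays, which by itself held for 5.17% of all genes in the higher and 6.24% in the lower direction.

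The count depended on single arrays. It fell to 135 (99 higher, 36 lower) without knockout colon 2 and to 163 (123 and 40) without knockout ileum 3. Leaving out the outlying array of knockout ileum 1 gave 184, of which 163 were among the 247. A fit of only the 6 knockout arrays, without the spread of the floxed arrays, called 180 genes (116 higher, 64 lower). The lower set also shrank by more than 1.5 times without knockout colon 1 (47 genes) or knockout ileum 2 (56). Among the genes named by rule, 9 calls were lost without knockout ileum 1. Leaving out any other knockout array lost 9 to 11. Calls given below as lost without knockout ileum 1 need not be particular to that array. Array background was the mean of 11 control probe sets of high GC content, with 15 to 25 G or C among 25 bases. It was 6.23 ± 0.20 (SD, n = 3) in knockout ileum and 6.52 ± 0.22 (SD, n = 3) in knockout colon (exact two-sided permutation p = 0.2, where 0.1 is the smallest possible). With that background as a covariate 415 genes were called and the balance turned, with 139 higher and 276 lower, 212 of them among the 247.

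**Figure D1:**
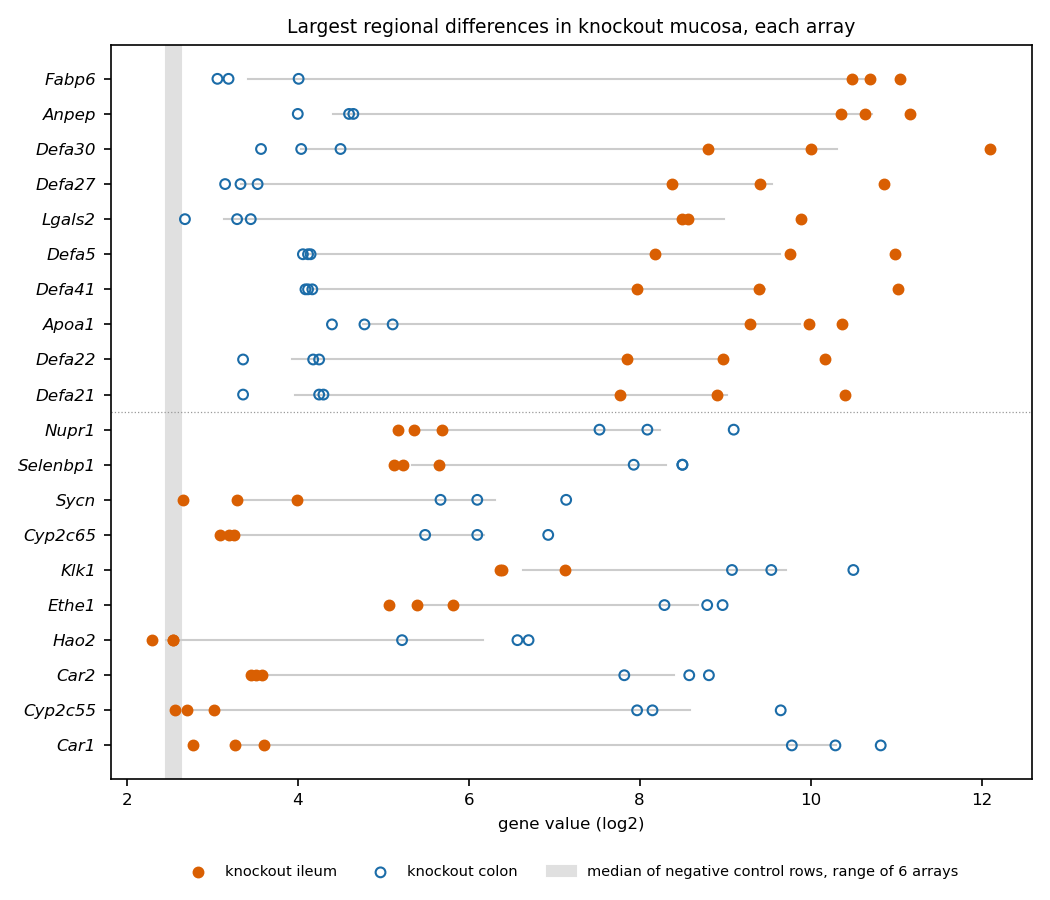
Each row is a gene and each point the log2 value in 1 knockout array, filled for ileum and open for colon; the line joins the group means, and the grey band spans the negative control medians of the 6 arrays. The 10 largest differences in each direction are shown after predicted genes, Rik names and pseudogenes were left out, and no ileum point overlaps a colon point of the same gene. Those left out include Gm5843 (-6.79), 2610528A11Rik (-4.30) and Defa-ps6 (5.22).

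Fabp6 showed the largest difference of any called gene. Its values were 10.48, 11.04 and 10.69 in knockout ileum and 3.19, 4.01 and 3.06 in knockout colon, a log2 difference of 7.32 (159-fold, adjusted p = 3.72e-07), and all 8 of its rows were higher in every ileum array. The peptidase gene Anpep, aminopeptidase N of the brush border, followed at 11.16, 10.64 and 10.35 in ileum and 4.65, 4.60 and 4.00 in colon (6.30, adjusted p = 2.99e-07). For both genes the lowest ileum array lay above the highest colon array.
Lgals2, which encodes galectin-2, a sugar-binding lectin, measured 9.89, 8.57 and 8.50 in ileum against 3.45, 3.29 and 2.68 in colon (5.85, adjusted p = 1.45e-06).

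Car1, a cytosolic carbonic anhydrase of colonocytes, stood at the other end. Its values were 3.27, 3.60 and 2.78 in knockout ileum and 10.82, 10.29 and 9.78 in knockout colon, a log2 difference of -7.08 (136-fold lower in ileum, adjusted p = 2.96e-05). The ileum arrays thus lay near the negative controls, and the colon arrays far above the median of all genes, which was 3.71 to 3.76 in the knockout arrays. Car2, its neighbour on chromosome 3, measured 3.58, 3.45 and 3.51 in ileum and 8.81, 8.58 and 7.82 in colon (-4.89, adjusted p = 2.11e-06). Cyp2c55 measured 2.56, 3.02 and 2.70 in ileum and 9.65, 7.97 and 8.15 in colon (-5.83, adjusted p = 0.000886), and all 17 of its rows were lower in every ileum array. Gm5843, a predicted gene beside Car1 named after its values were seen, differed by -6.79, and whether its rows also measure Car1 RNA was not tested.

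Among the next lower genes, Hao2, a peroxisomal hydroxyacid oxidase, differed by -3.71 (adjusted p = 0.000132) and was at background in ileum, at 2.30, 2.54 and 2.54. Ethe1, the persulfide dioxygenase of mitochondrial sulfide disposal, measured 5.82, 5.39 and 5.07 in ileum and 8.97, 8.79 and 8.29 in colon (-3.25, adjusted p = 0.000112). Klk1, tissue kallikrein, measured 7.13, 6.37 and 6.39 against 10.50, 9.54 and 9.08 (-3.08, adjusted p = 0.000493). The ileal values of Ethe1 lay under the 95th percentile of the negative controls and those of Klk1 above it. Selenbp1, a selenium-binding protein with methanethiol oxidase activity, differed by -2.97 (adjusted p = 1.11e-05), and the stress-induced nuclear protein gene Nupr1 by -2.83 (adjusted p = 0.00619). Sycn, which encodes a secretory granule protein described in pancreatic acinar cells, differed by -2.99 (adjusted p = 0.0266), while none of the 12 exocrine pancreas genes on the list was called and their median difference was -0.04. The Sycn call was lost without knockout ileum 1 (adjusted p = 0.0811).

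Genes were then read by function, over 41 lists holding 583 genes, of which 553 were measured. In the lists 59 genes were higher in ileum and 13 lower, where the shares over all genes tested were 0.480% and 0.310%. The lists were chosen with earlier results of these data known, so their counts and medians describe the pattern and do not test it. The highest medians were those of Paneth cell products, brush border peptidases, amino acid and peptide transporters, fat absorption, bile acid handling and sugar digestion, and the lowest those of sulfide oxidation, goblet cell genes and conjugating enzymes.

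**Figure D2:**
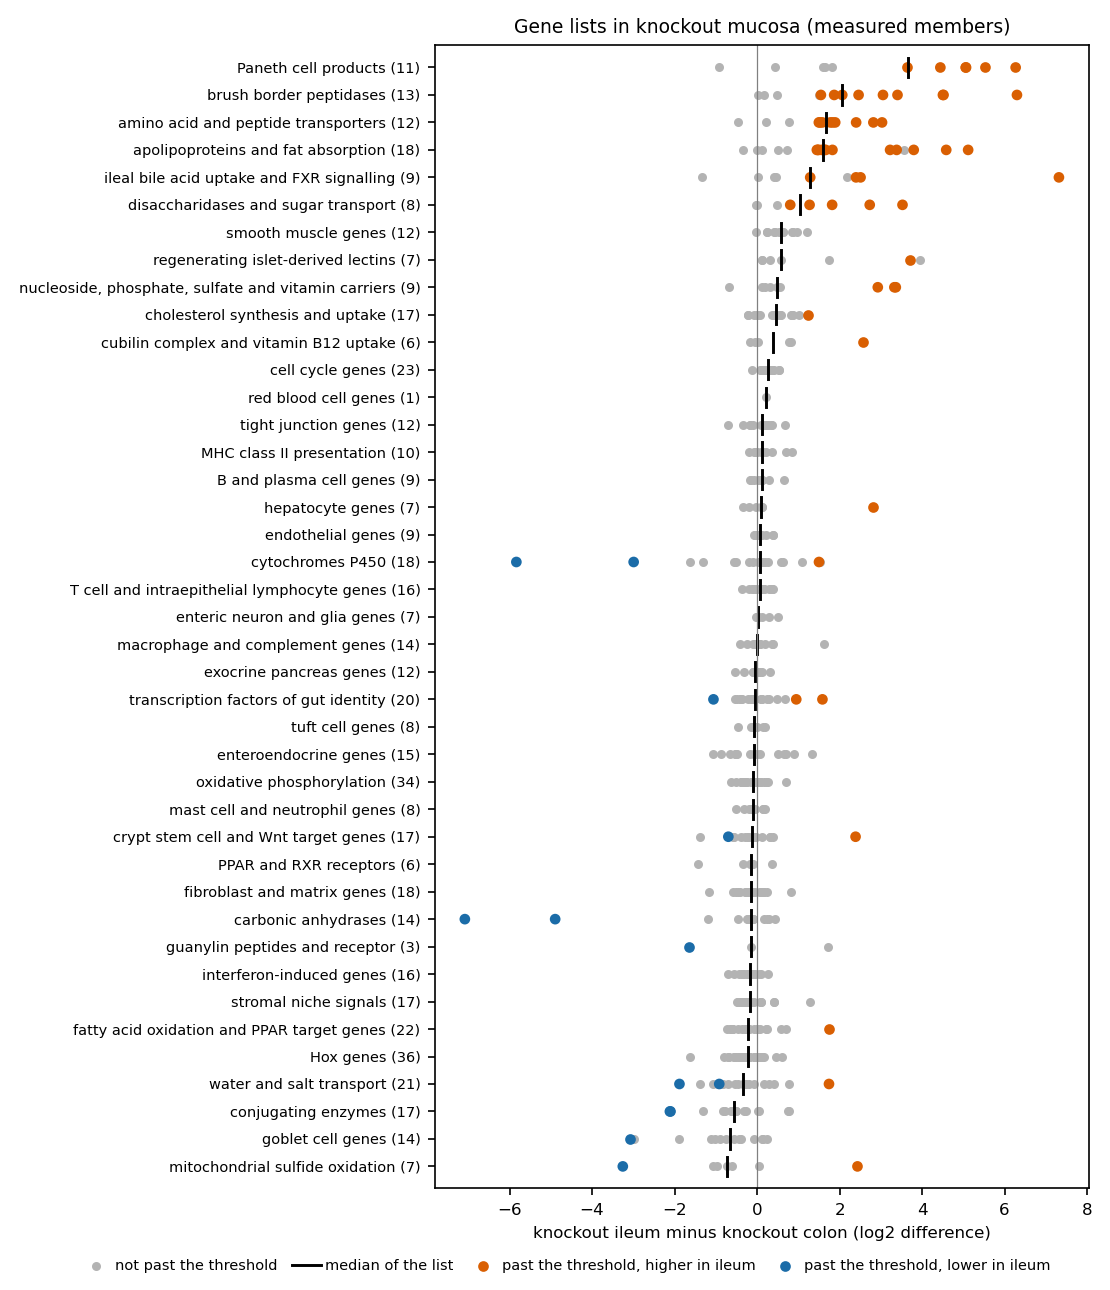
Each row is a gene list with its number of measured members, and each point a member's log2 difference between knockout ileum and knockout colon, coloured where the gene passed the threshold; the bar is the list's median. List medians run from 3.65 for Paneth cell products down to -0.73 for mitochondrial sulfide oxidation, against -0.008 over all genes.

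Of 9 genes of ileal bile acid handling, 4 were higher in ileum, none was lower, and the median difference was 1.29. Beside Fabp6 these were Slc51b and Slc51a, the basolateral exporter of bile acids that works as a heterodimer, and Abcc2, an apical export pump. Slc51b measured 9.82, 9.25 and 8.69 in ileum and 7.25, 6.64 and 6.35 in colon (2.51, adjusted p = 0.0194), and Slc51a differed by 2.40 (adjusted p = 0.0463). Both calls were lost without knockout ileum 1, at adjusted p of 0.0835 and 0.138, although the regions did not overlap. They were also lost when some other single arrays were left out. Slc10a2, the apical sodium-dependent uptake carrier, measured 8.20, 7.09 and 6.98 in ileum and 6.11, 4.77 and 4.86 in colon (2.18), and did not pass the test (adjusted p = 0.18). Fgf15, the hormone that ileal enterocytes release on bile acid uptake, measured 3.41, 5.58 and 4.01 in ileum and 3.67, 4.01 and 4.10 in colon (0.41, adjusted p = 0.995), with overlap. The bile acid receptor gene Nr1h4 differed by 0.45 (adjusted p = 0.978), and the basolateral pump gene Abcc3 by -1.33 (adjusted p = 0.0541).

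The promoter of Fabp6 is shown because its gene had the largest regional difference. The window of 300 bases, 250 before and 50 after the annotated start, was taken from RefSeq on build GRCm38.p6 at chr11:43601513-43601812, minus strand, and is printed 5′ to 3′ with the letters TTTATG of a CDX site, here on the opposite strand, in capitals. CDX factors are homeodomain proteins of the intestinal epithelium. These letters occurred on either strand in 10.2% of 22890 promoter windows of measured genes, in 10.5% of 133 windows of genes higher in ileum and in 10% of 80 windows of genes lower in ileum, so the match is common.
Fabp6: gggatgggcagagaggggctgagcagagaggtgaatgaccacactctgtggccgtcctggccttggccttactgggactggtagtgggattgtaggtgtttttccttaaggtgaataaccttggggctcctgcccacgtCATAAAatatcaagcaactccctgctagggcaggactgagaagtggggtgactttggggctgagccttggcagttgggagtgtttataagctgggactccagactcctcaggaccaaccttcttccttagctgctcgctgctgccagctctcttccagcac

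Vitamin B12 uptake showed a change in 1 of 6 genes. Cubn, which encodes cubilin, the ileal receptor of the intrinsic factor and B12 complex, measured 5.78, 6.37 and 5.93 in ileum and 3.81, 3.26 and 3.33 in colon (2.56, adjusted p = 0.000921), and 137 of its 140 rows were higher in ileum. Its membrane partner Amn differed by 0.77 (adjusted p = 0.105), and the list's median was 0.39.

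Brush border peptidases were higher in ileum in 9 of 13 genes, with none lower and a median of 2.06. Naaladl1, an ileal dipeptidase, measured 8.97, 9.67 and 9.09 in ileum against 4.73, 4.82 and 4.66 in colon (4.50, adjusted p = 1.31e-06). Enpep, aminopeptidase A, measured 8.45, 7.17 and 7.59 against 3.27, 3.24 and 3.14 (4.52, adjusted p = 1.35e-05). All 36 rows of Naaladl1 and all 50 of Enpep were higher in ileum. The meprin subunit gene Mep1b (3.40), the dipeptidyl peptidase gene Dpp4 (3.05), aminopeptidase P2 (Xpnpep2, 2.46), angiotensin-converting enzyme (Ace, 2.06), neprilysin (Mme, 1.87) and gamma-glutamyltransferase (Ggt1, 1.55) were also higher, at adjusted p of at most 0.00637. Mep1a, the other meprin subunit, differed by 1.51 and did not pass (adjusted p = 0.233). Tmprss15, the enteropeptidase of the duodenum, differed by 0.02 (adjusted p = 1).

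Sugar digestion and transport genes were higher in ileum in 5 of 8 cases, with a median of 1.04. Sucrase-isomaltase (Sis) measured 6.80, 5.68 and 6.17 in ileum and 2.93, 2.71 and 2.43 in colon (3.52, adjusted p = 0.000373), so its colon values were near background. Maltase-glucoamylase (Mgam) differed by 2.73 (adjusted p = 0.00535) from colon values of 5.62 to 6.71, and 128 of its 129 rows were higher. The sodium-glucose cotransporter Slc5a1 differed by 1.82 (adjusted p = 0.00912) and trehalase, Treh, by 1.27 (adjusted p = 0.00686). The fructose carrier Slc2a5 had a small difference of 0.80 (adjusted p = 0.0475), which was not called in 11 of the alternative settings. Lactase, Lct (-0.02), and the basolateral glucose carrier Slc2a2 (-0.00) had adjusted p of 1.

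Fat absorption genes were higher in ileum in 12 of 18 cases, none lower, with a median of 1.60. Apoa1, the main protein of high-density lipoprotein, measured 9.29, 10.37 and 9.98 in ileum and 4.78, 4.40 and 5.11 in colon (5.12, adjusted p = 4.83e-07). Apob, the scaffold of chylomicrons, measured 8.70, 8.31 and 7.65 against 4.05, 3.23 and 3.62 (4.58, adjusted p = 1.11e-05). Mttp, which loads lipid onto that scaffold, measured 6.94, 6.63 and 6.41 against 3.28, 3.20 and 3.35 (3.38, adjusted p = 1.11e-05). The regions lay apart for all 3 genes, and the chylomicron assembly genes thus rose together. Npc1l1, the apical cholesterol importer, differed by 3.80, and Abcg5 and Abcg8, whose products form the exporter that returns sterols to the lumen, by 1.66 and 1.49, at adjusted p of at most 0.00131. Fabp2, the intestinal fatty acid binding protein, differed by 3.55 without passing the test (adjusted p = 0.0944), while Fabp1 (0.11), Cd36 (-0.00) and Scarb1 (-0.35) differed little and were not called.

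Amino acid and peptide transporters were higher in ileum in 9 of 12 cases, none lower, with a median of 1.68. Slc6a19, the apical carrier of neutral amino acids, measured 6.28, 6.34 and 6.02 in ileum and 3.27, 3.33 and 3.59 in colon (2.82, adjusted p = 2.96e-05). The peptide carrier Slc15a1 measured 7.46, 7.10 and 6.67 against 3.74, 4.50 and 3.91 (3.03, adjusted p = 0.000943). Both subunits of the cystine and dibasic amino acid carrier were higher, Slc7a9 by 2.40 (adjusted p = 0.000359) and Slc3a1 by 1.83 (adjusted p = 0.0345). Slc43a2, Slc6a20a, Slc7a7, Slc16a10 and Slc1a1 rose by 1.50 to 1.89. Slc3a2, Slc7a8 and Slc36a1 were not called, at 0.76, 0.23 and -0.47. Of 9 carriers of nucleosides, phosphate, sulfate and vitamins, 3 were higher and the median was 0.48. They were the nucleoside carrier Slc28a2 (3.36, adjusted p = 0.00012), the phosphate carrier Slc34a2 (3.33, adjusted p = 0.000149) and the sulfate carrier Slc13a1 (2.93, adjusted p = 0.00172).

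Promoters of called genes are shown next where they hold the letters CAAAGTCCA, a binding sequence of HNF4 factors, to show the sequence context of genes called in each direction. On either strand these letters occurred in 0.472% of the 22890 windows. They occurred in 5 of 133 windows of 107 genes higher in ileum (3.76%) and in 3 of 80 windows of 73 genes lower in ileum (3.75%). A gene can have several windows, and so few matches cannot decide whether the directions differ. The higher genes were Btnl2, Pdzk1, Slc3a1, Tmem150b and Treh, and the 3 lower windows came from only Cyp2c65 and Hsd3b3. The windows of Slc3a1 at chr17:85028097-85028396, Treh at chr9:44672983-44673282 and Cyp2c65 at chr19:39060756-39061055 are all on the plus strand of GRCm38.p6, from RefSeq, cut as for Fabp6. Capitals mark these letters and, in Slc3a1, also AGATAA of a GATA site and GTTAAT, only a part of an HNF1 site, on the opposite strand. AGATAA occurred in 9.67% of all windows, in 15.8% of those of higher genes and in 13.8% of those of lower genes, and GTTAAT in 6.31%, 12.8% and 7.5%. A match is a run of letters and not a measured binding site.
Slc3a1: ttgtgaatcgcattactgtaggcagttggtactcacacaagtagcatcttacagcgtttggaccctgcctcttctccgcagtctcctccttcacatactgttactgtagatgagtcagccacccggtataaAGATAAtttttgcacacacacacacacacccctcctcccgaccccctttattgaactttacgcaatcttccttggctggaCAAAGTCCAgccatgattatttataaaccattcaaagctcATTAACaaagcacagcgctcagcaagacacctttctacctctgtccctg
Treh: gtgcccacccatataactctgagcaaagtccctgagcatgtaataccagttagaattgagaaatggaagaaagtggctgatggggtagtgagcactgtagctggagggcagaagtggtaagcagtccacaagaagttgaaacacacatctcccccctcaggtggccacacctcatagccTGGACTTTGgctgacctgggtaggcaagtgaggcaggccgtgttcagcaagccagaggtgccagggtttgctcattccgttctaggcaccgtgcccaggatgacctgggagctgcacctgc
Cyp2c65: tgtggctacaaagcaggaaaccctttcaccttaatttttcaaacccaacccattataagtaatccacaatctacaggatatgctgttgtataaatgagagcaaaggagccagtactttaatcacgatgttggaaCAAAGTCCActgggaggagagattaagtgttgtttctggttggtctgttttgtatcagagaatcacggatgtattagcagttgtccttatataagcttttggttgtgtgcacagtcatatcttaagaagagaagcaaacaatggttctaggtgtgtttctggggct

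Paneth cell products had the highest median of any list, 3.65, with 6 of 11 measured genes higher in ileum and none lower. Defa30 measured 12.10, 8.80 and 10.01 in ileum and 3.57, 4.50 and 4.04 in colon (6.27, adjusted p = 0.000579), and Lyz1, Paneth cell lysozyme, 9.59, 6.74 and 7.94 against 4.78, 4.04 and 4.53 (3.65, adjusted p = 0.00603). The ileum arrays spread widely and kept 1 order in both genes, with knockout ileum 1 highest and knockout ileum 2 lowest. The list's mean level ran 8.52, 6.01 and 7.15 over the ileum arrays and from 4.05 to 4.15 over the colon arrays. Without knockout ileum 1 the median was 2.89 and the same number, 6, was called. Defa27, Defa5, Defa41, Defa22 and Defa21 differed by 5.06 to 6.21. The alpha-defensin genes are near-identical copies, so which of them is measured stays uncertain, and single members are best read as the family. In genome order, 13 called Defa genes on chromosome 8 lay within a run of 16 measured coding genes. Mmp7, the mouse convertase of pro-defensins, measured 6.32, 4.12 and 4.63 in ileum and 3.64, 3.59 and 3.05 in colon (1.60, adjusted p = 0.183). Ang4, an angiogenin with antimicrobial activity, differed by -0.93 (adjusted p = 0.786).

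Smooth muscle genes followed part of that pattern across arrays, since their mean level was 6.49, 5.40 and 5.74 in knockout ileum and 5.40, 5.38 and 5.09 in knockout colon. None of the 12 was called, their median difference was 0.58, and it was 0.27 without knockout ileum 1. The defining members Acta2 (8.59, 6.60 and 7.33 in ileum), Myh11 (6.93, 5.45 and 5.85) and Des (6.09, 4.88 and 5.33) were each highest in knockout ileum 1. So were the plasma cell gene Jchain (7.13, 3.80 and 4.13 in ileum), the fibroblast gene Dcn (6.59, 4.07 and 4.77) and the mean levels of oxidative phosphorylation (6.81, 5.91 and 6.06) and cell cycle genes (4.79, 3.95 and 4.19). The part of this array's tissue composition in the defensin values was not tested.

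**Figure D3:**
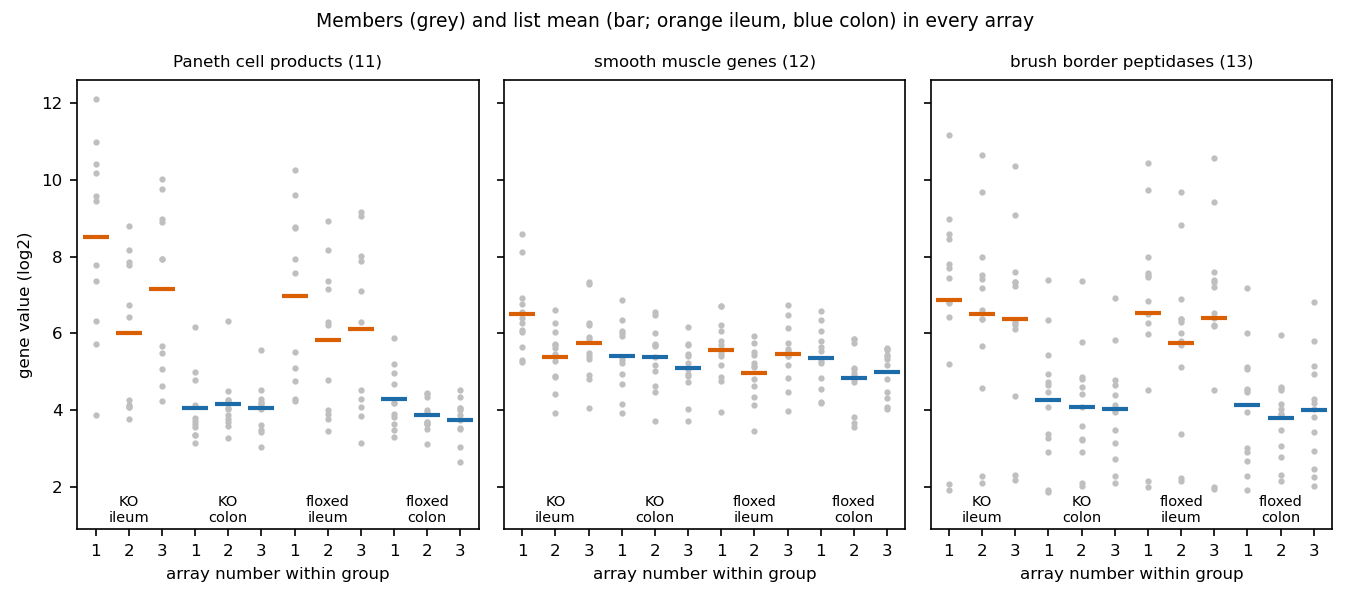
Grey points are the log2 values of list members in each of the 12 arrays, and coloured bars the mean of the list in that array, orange for ileum and blue for colon. Paneth cell genes are highest in array 1 of knockout ileum, smooth muscle genes show the same array on top, and the peptidase means of knockout ileum (6.36 to 6.87) lie apart from those of knockout colon (4.03 to 4.26).

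Of the secreted Reg lectins, Reg3g and Reg3b had high values in ileum without passing the test. Reg3g, which kills Gram-positive bacteria, measured 12.75, 11.94 and 11.96 in ileum and 10.10, 7.75 and 6.99 in colon (3.94, adjusted p = 0.0953). Reg3b measured 12.98, 12.37 and 12.43 against 12.06, 10.16 and 10.31 (1.76, adjusted p = 0.89). Reg3a was the only one of the 7 lectin genes called, at 8.88, 5.39 and 6.04 against 3.02, 3.28 and 2.89 (3.71, adjusted p = 0.0132), and the median of the list was 0.57.

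Goblet cell genes had a median of -0.66, with 1 of 14 lower in ileum, Klk1, and none higher. Without knockout ileum 1 there were 2 lower. With all arrays, every ileum array lay below every colon array in 7 of the 14 genes, against 6.24% of all genes. Muc2, the mucin that forms intestinal mucus, measured 10.04, 9.74 and 9.26 in ileum and 12.09, 11.47 and 11.17 in colon (-1.90). The regions did not overlap, yet Muc2 did not pass the test (adjusted p = 0.127). Retnlb, a goblet cell peptide of the resistin family, differed by -2.99 (adjusted p = 0.0715), while Tff3 (0.25), Fcgbp (0.14), Zg16 (0.11) and Clca1 (-0.07) differed little and were not called.

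Water and salt transport had 1 gene higher and 2 lower of 21, with a median of -0.34, and without knockout ileum 1 it had 3 lower and a median of -0.56. Slc9a3, the sodium-proton exchanger of the brush border, measured 5.24, 5.06 and 4.80 in ileum and 7.13, 7.28 and 6.33 in colon (-1.88, adjusted p = 0.00629), and all 33 of its rows were lower. The anion exchanger Slc26a6 went the other way, at 6.06, 6.20 and 5.95 against 4.22, 4.04 and 4.72 (1.74, adjusted p = 0.000239). The water channel Aqp4 differed by -0.92 (adjusted p = 0.0438), a call that 10 of the alternative settings did not make. Among colonic transporters that did not pass were Aqp8 at -1.39 (adjusted p = 0.106) and the chloride-bicarbonate exchanger Slc26a3 at -1.06 (adjusted p = 0.487). Of 14 carbonic anhydrases, Car1 and Car2 were lower and none was higher, and the median was -0.14. Car4, a membrane-bound form, differed by 0.44 (adjusted p = 0.986). Guanylin, Guca2a, a peptide that drives fluid secretion, measured 8.76, 8.81 and 8.41 in ileum and 10.57, 10.47 and 9.91 in colon (-1.66, adjusted p = 0.0365). It was the only called gene of 3 (median -0.15), and its call was lost without knockout ileum 1 (adjusted p = 0.087). Uroguanylin, Guca2b, differed by 1.73 in the opposite direction (adjusted p = 0.1), and their receptor Gucy2c by -0.15.

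Cytochromes P450 split, with Cyp2c55 and Cyp2c65 lower and Cyp4v3 higher of 18 genes, and a median of 0.08. Cyp2c65, whose promoter is printed above, measured 3.20, 3.25 and 3.09 in ileum and 6.93, 6.10 and 5.49 in colon (-2.99, adjusted p = 0.0494), and left the called set without knockout ileum 1 (adjusted p = 0.127). These Cyp2c genes are close relatives, and rows shared between them cannot be told apart here. Of 17 conjugating enzymes, the phenol sulfotransferase Sult1a1 (-2.10, adjusted p = 0.00262) and the glutathione transferase Gstm1 (-2.11, adjusted p = 0.00373) were lower, none was higher, and the median was -0.57. Mitochondrial sulfide oxidation had the lowest median, -0.73 over 7 genes. In that list Ethe1 was lower, whereas Suox, sulfite oxidase, was higher, at 8.54, 7.86 and 7.87 in ileum and 5.72, 5.60 and 5.66 in colon (2.43, adjusted p = 5.52e-05). The remaining members Tst (-1.08), Sqor (-0.96), Cbs (-0.73), Mpst (-0.60) and Cth (0.06) were not called.

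None of 36 Hox genes, which mark position along the body axis, was called, and their median was -0.23. In 6 of them every ileum array lay below every colon array, and in none above. Over all genes these held for 6.24% and 5.17%. Hoxb13, a gene of the hindgut end, measured 3.55, 3.84 and 3.42 in ileum and 4.08, 5.48 and 6.14 in colon (-1.63, adjusted p = 0.579), without overlap. Of 20 transcription factors of gut identity, Hnf4g (1.58, adjusted p = 0.0446) and Gata5 (0.95, adjusted p = 0.0055) were higher and Foxa1 (-1.06, adjusted p = 0.0454) was lower, with a median of -0.05. Hnf4g was lost without knockout ileum 1 (adjusted p = 0.117), and Gata5 was kept. Cdx2, the master factor of intestinal epithelium, measured 6.98, 6.42 and 6.92 against 7.10, 6.98 and 6.38 (-0.05). Among 17 crypt stem cell and Wnt target genes, Olfm4 measured 6.19, 5.16 and 5.30 in ileum and 2.53, 3.53 and 3.43 in colon (2.39, adjusted p = 0.00103), Sox9 was lower (-0.70, adjusted p = 0.0354, lost at 0.0835 without knockout ileum 1), and the median was -0.12. Lgr5, the receptor that marks crypt stem cells, differed by 0.39 (adjusted p = 0.519).

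None of the 6 PPAR and retinoid X receptor genes was called (median -0.14), and 2 had every ileum array below every colon array. Over all genes 6.24% lay apart in that direction, a share that also applies to the fatty acid oxidation list below. Pparg, a receptor of colonic epithelium, measured 2.89, 2.73 and 2.98 in ileum and 4.91, 3.89 and 4.10 in colon (-1.43), without overlap and short of the threshold (adjusted p = 0.0615). Of 22 genes of fatty acid oxidation and PPAR targets, Vnn1, which encodes the pantetheinase vanin-1, was higher in ileum (1.75, adjusted p = 0.00271), none was lower, and the median was -0.22, with 5 genes whose ileum arrays all lay below the colon arrays. Pdk4 (-0.67), Cpt1a (-0.61), Plin2 (-0.36) and Angptl4 (0.57), classic PPAR targets, were not called. Oxidative phosphorylation had 0 of 34 genes called and a median of -0.09, which was -0.37 without knockout ileum 1. Of 17 cholesterol genes Idi1 alone was higher (1.22, adjusted p = 0.0446) with a median of 0.45, and it was lost without knockout ileum 1 (adjusted p = 0.158). Cell cycle genes had 0 of 23 called and a median of 0.27, which was -0.01 without that array.

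Stromal and immune genes passed the test in no list, although 1 of the fibroblast and matrix genes was called lower without knockout ileum 1. The 18 fibroblast and matrix genes had a median of -0.14, with Col1a1 at 7.26, 6.87 and 7.14 in ileum and 7.83, 7.62 and 7.39 in colon (-0.52, adjusted p = 0.422) and Postn at -1.15 (adjusted p = 0.0998). The 17 stromal niche signals, the Wnt, Bmp and R-spondin factors that fibroblasts send to crypts, had a median of -0.18, and the Bmp antagonist gene Grem1 differed by 1.29 (adjusted p = 0.522). Medians were also near 0, with no call, for B and plasma cell genes (9 genes, 0.11), T cell and intraepithelial lymphocyte genes (16, 0.07), MHC class II presentation (10, 0.13) and macrophage and complement genes (14, 0.01). The same held for mast cell and neutrophil genes (8, -0.10), interferon-induced genes (16, -0.18), endothelial genes (9, 0.08) and enteric neuron and glia genes (7, 0.03). Among 15 enteroendocrine genes (median -0.08, 0 called), the ileal hormone neurotensin, Nts, measured 5.93, 5.43 and 5.22 in ileum and 6.00, 3.56 and 3.02 in colon. Insl5, a colonic hormone, differed by -1.07 (adjusted p = 0.431) with ileum values of 3.52 to 3.81. Tuft cell genes (8, -0.08), tight junction genes (12, 0.13) and the red blood cell gene Alas2 (0.22) were not called either. Of 7 hepatocyte genes (median 0.10), Cps1 was higher, at 7.29, 5.51 and 6.00 in ileum and 3.43, 3.32 and 3.60 in colon (2.82, adjusted p = 0.00229), a urea cycle enzyme that small intestinal enterocytes also make. The other 6 hepatocyte genes were not called.

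Floxed mucosa showed whether this regional pattern was particular to the knockout. In floxed mice 184 genes (0.588%) differed between ileum and colon, 124 higher (0.396%) and 60 lower (0.192%), and 163 (0.521%) by at least 2-fold. Of the genes called in knockout, 59.9% were called in floxed mucosa, and of those called in floxed mucosa, 80.4% were called in knockout, which is 148 genes in both. Among the 150 genes higher in knockout ileum, 149 had the same sign in floxed mucosa, the exception being Gm4862, and among the 97 lower genes 95 did, the exceptions being Calcb and 1700022H01Rik. The floxed arrays did not overlap for 145 of the 150 and 89 of the 97 genes, which held for 5.12% and 6.12% of all genes. The difference itself was tested as an interaction in limma, and 0 genes were called (smallest adjusted p = 1) and 775 genes reached an unadjusted p under 0.05, against 1564 expected by chance. The count was also 0 under each alternative setting run. Among the 283 genes called in either genotype, the unadjusted 95% interval of the interaction reached a median of 0.72 log2 units to either side. It excluded 0 for 24 of these 283, and for 775 of all 31276 genes. The 283 were chosen by the same differences that make up the interaction, so the count of 24 does not test for a difference between genotypes.

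**Figure D4:**
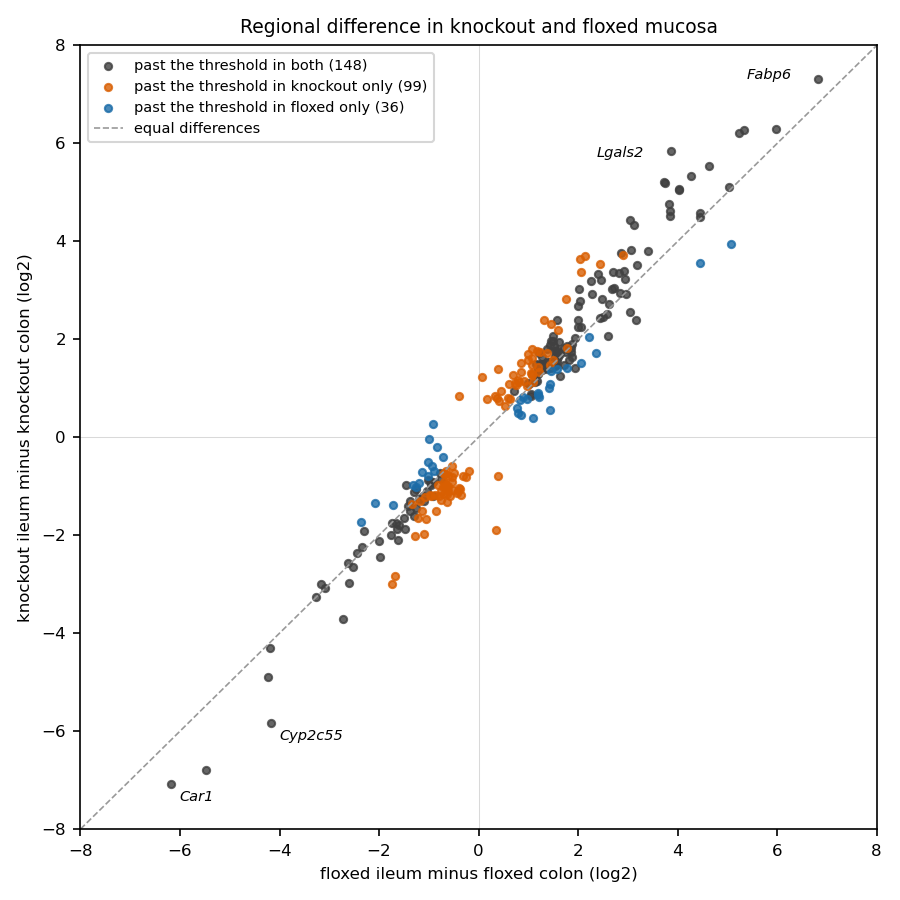
Each point is 1 of the 283 genes called in knockout or floxed mucosa, with its ileum minus colon difference (log2) in floxed mucosa on the horizontal axis and in knockout mucosa on the vertical axis. Points follow the dashed line of equal differences, and Lgals2 and Cyp2c55 lie farther from 0 in knockout than in floxed mucosa. For Cyp2c55 the floxed colon arrays measured 8.80, 5.19 and 7.96, so 1 array weighs on its floxed difference.

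Fabp6 differed by 7.32 in knockout and 6.82 in floxed mucosa (interaction 0.50, unadjusted p = 0.321), and Anpep by 6.30 and 5.98. Car1 differed by -7.08 and -6.19 (interaction -0.89, unadjusted p = 0.277), and Cyp2c55 by -5.83 and -4.18 (unadjusted p = 0.117). None of these differences between genotypes passed the test. In floxed colon, array 2 was the lowest for both Car1 (10.39, 7.33 and 9.16) and Cyp2c55 (8.80, 5.19 and 7.96). That array stood apart on the third principal component, at -48.8 where the others lay between -13.0 and 11.7. List medians were 2.06 in knockout and 1.80 in floxed mucosa for brush border peptidases, 1.60 and 1.58 for fat absorption, 1.29 and 1.19 for bile acid handling, and -0.66 and -0.62 for goblet cell genes. They were 1.68 and 1.29 for amino acid and peptide transporters (9 and 6 called), 1.04 and 0.62 for sugar digestion (5 and 3 called), -0.57 and -0.23 for conjugating enzymes and -0.15 and 0.05 for guanylin peptides. The Paneth cell median was 3.65 in knockout and 2.05 in floxed mucosa, and none of its members had an interaction p under 0.05. In the set called in both genotypes, 110 of 148 genes lay farther from 0 in knockout mucosa, and over all 148 the median of the knockout size minus the floxed size was 0.17 on the log2 scale. Those genes share the same 12 arrays and are not independent, so no test was made of that count.

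Calcb, which encodes the neuropeptide beta-CGRP, had the smallest interaction p among genes with a negative interaction. It measured 3.01, 3.11 and 3.30 in knockout ileum and 3.91, 3.91 and 3.95 in knockout colon (-0.79, adjusted p = 0.037), with a difference of 0.39 in floxed mucosa (interaction -1.18, unadjusted p = 0.00015). All of these values are low, and the regional call was lost without knockout ileum 1 (adjusted p = 0.133). Lgals2 had the smallest such p among genes with a positive interaction, at 5.85 in knockout and 3.87 in floxed mucosa (interaction 1.97, unadjusted p = 0.00101). Next in the positive direction were Rasl11a (0.81), Il1f10 (1.13), G6pc (1.00), Prlhr (0.95) and Pcdhb5 (0.94), and in the negative direction Mtif3 (-1.13), Smbd1 (-0.91), Slc10a4l (-1.02), Erp29 (-0.92) and H2-Q3 (-0.67). All 12 had an adjusted p of 1 for the interaction, and none of them is called different between genotypes.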

How the data were processed

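Total RNA from laser-dissected mucosa was amplified with a WT Pico kit, biotin-labelled and measured on 12 arrays, per the labels' protocols. The authors deposited log2 values for 725678 rows, of which 437027 were exon regions, 282044 junctions and 6607 controls. RMA and Partek are named, without version, role or order, per the submitters' processing notes. RMA as a method corrects background and equalises arrays, so levels are relative within the set.

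Of the rows, 580167 carried 1 gene symbol in the platform annotation, 18694 several and 120210 none, and only the first were used. Of 31383 symbols, 29760 were current in RefSeq, 1584 were updated and 39 kept, which gave 31276 genes, 7532 of them from 1 row. A gene's value was the median of its rows. Fits used limma 3.58.1 in R 4.3.3, with a mean per group over all 12 arrays (8 residual degrees of freedom) and Benjamini-Hochberg adjustment over all genes. The fit was tested on simulated data. Array background was compared with an exact permutation test.

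Named genes are Ppard and S100a4; the 10 largest called differences in each direction with regions that did not overlap; up to 5 called members of smallest p per list and direction; and 6 genes of smallest interaction p in each direction. Predicted genes, Rik names, pseudogenes, small RNAs, receptors of large families and immune segments were counted and left out of this choice. Genes named beyond these were chosen after their values were seen. The members and gene lists were chosen with earlier results of these data known. The alternatives were fitting only the 6 arrays of a comparison, a replicate block, quantile normalization, the mean of rows, exon region rows only, genes of mean at least 4, a variance trend with robust moderation, array background as a covariate and leaving out each array; leaving out both outlying arrays (knockout ileum 1 and floxed colon 2) was chosen after seeing the data.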

Additional observations from a re-analysis of the deposited data

Results flagged for a closer look

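Foxl1, a forkhead factor of subepithelial fibroblasts, had regions that lay apart in opposite directions in the genotypes. It measured 4.02, 4.43 and 4.18 in knockout ileum and 4.51, 4.54 and 4.51 in knockout colon, and 4.25, 4.51 and 4.26 in floxed ileum and 4.06, 4.05 and 3.99 in floxed colon. The interaction was -0.61 (unadjusted p = 0.00846, adjusted p = 1), so the difference did not pass the test in limma. Foxl1 was read from 3 rows. The pattern was not particular to it, since Mtif3, Erp29 and Rasl11a also lay apart in opposite directions. Over all genes, 6.24% lay apart with ileum lower in knockout mucosa, and 5.12% with ileum higher in floxed mucosa. The share of all genes that lay apart in opposite directions was not counted.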

How the results depend on the processing

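With array background as a covariate the knockout count moved to 415 genes and the floxed count to 334 (207 higher, 127 lower), and the cause was not tested. Leaving out 1 array, which reduces the samples, gave 135 to 190 genes in knockout and 93 to 191 in floxed mucosa. The remaining settings gave 180 to 347 genes in knockout and 147 to 254 in floxed mucosa. The interaction had 0 calls under every setting run, and it has no value from 6 arrays. With 1 array left out the Ppard difference ranged from -0.33 to 0.09 and that of S100a4 from -0.09 to 0.58, changing sign in 1 case each, and neither was called. S100a4 had a mean under 4 and so no value with dim genes removed. With the replicate number as a block, 332 genes were called in knockout, 232 in floxed mucosa and 0 for the interaction. Deviations of same-numbered arrays correlated at 0.531, -0.047 and 0.22 in knockout and 0.262, 0.104 and -0.128 in floxed mucosa, not over 0.1 in every pair, so the block was kept as an alternative; whether regions share a mouse is not known. Over all settings, named-gene differences stayed on their side of the threshold in 875 cases and lost the call in 94. Idi1 and Slc2a5 were lost most often, in 11 settings each, followed by Aqp4 and Sox9 in 10, Cyp2c65 and Hnf4g in 8 and Foxa1 and Slc51a in 7; Guca2a, Sycn, Slc51b, Reg3a and Calcb also lost it when single arrays were left out. No detection value was used here, and genes near the negative controls have compressed differences.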

Other observations

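The genes in these paragraphs were named after their values were seen and stand for no pathway. The erythrocyte-type glucose carrier Slc2a1 measured 5.82, 5.75 and 5.78 in ileum and 6.82, 6.65 and 6.50 in colon (-0.87, adjusted p = 0.00929). Hexokinase 1, Hk1, differed by -0.74 (adjusted p = 0.0419), and the liver-type phosphofructokinase Pfkl by -0.86 (adjusted p = 0.00798). Pck1, the gluconeogenic enzyme, was lower too (-1.01, adjusted p = 0.0409). Without knockout ileum 1 the calls of Hk1 (adjusted p = 0.104) and Pck1 (0.0956) were lost.

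Other genes outside the lists had larger differences. Adenosine deaminase, Ada, measured 7.65, 8.61 and 7.51 in ileum and 4.72, 4.51 and 4.88 in colon (3.22, adjusted p = 5.52e-05). Rbp2, the enterocyte retinol binding protein, differed by 3.20 (adjusted p = 4.69e-05), and Adh1, an alcohol and retinol dehydrogenase, by -2.56 (adjusted p = 0.0438). Inducible nitric oxide synthase, Nos2, measured 7.69, 6.31 and 6.74 in ileum and 3.96, 4.16 and 3.84 in colon (2.93, adjusted p = 0.000144). Maf, a bZIP transcription factor, differed by 2.95 (adjusted p = 0.000649), and Ccl25, the chemokine of the small intestine, by 1.70 (adjusted p = 0.0144), while its receptor gene Ccr9 differed by -0.11. The calls of Adh1 (adjusted p = 0.0653) and Ccl25 (0.0667) were lost without knockout ileum 1. The brush border genes Vil1 (villin, 1.42) and Myo1a (1.53) were higher, at adjusted p of 0.0455 and 0.0136, and both calls were lost without knockout ileum 1. Fa2h, a fatty acid hydroxylase, measured 4.60, 4.45 and 3.99 in ileum and 7.23, 6.84 and 6.31 in colon (-2.45, adjusted p = 0.000364). Creb3l1, a membrane-bound transcription factor, differed by -1.99 (adjusted p = 0.000373), and the pore-forming gasdermin genes went apart, with Gsdmc2 at -2.35 (adjusted p = 0.00912) and Gsdme at 1.97 (adjusted p = 0.000596).

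Of 229 called coding genes with a RefSeq position, 48 fell into 17 groups whose members lay at most 3 measured coding genes apart, and 16 of the 17 moved in 1 direction. The same count was not made for other genes, and 13 of the 48 are alpha-defensins. Besides the alpha-defensins these included Apoa1, Apoc3 and Apoa4 on chromosome 9, Abcg5, Abcg8 and Slc3a1 on chromosome 17, Clca4a (3.76) and Clca4b (4.62) on chromosome 3, and Cyp2c55 and Cyp2c65 on chromosome 19. P2ry2, higher in ileum, and Stard10, lower, formed the exception on chromosome 7. Several of these neighbours are duplicated genes, and the part of shared sequence in their values was not tested.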
